A study of Homo sapiens with 6 samples.

Results

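The genes of a stretch at the end of the long arm of chromosome 1, from SNRPE to PGBD2, were followed in K562 cells, a human erythroleukemic line. A member was a gene with a mean of at least 1 FPKM (fragments per kilobase of transcript, scaled to the mapped fragments of the library) over the 6 libraries and a start between positions 203861599 and 248930191 of GRCh38. ATF3, which starts inside these limits, was left out. The rule gave 168 members, out of 12634 tested genes, which reached that mean, and 58288 rows in all. The stretch itself had been chosen by its measured difference between the same 6 libraries, in which most of its genes gave less RNA with 2KR-MYB than with ANAA-MYB. Every difference of a member between the rescues is therefore given below as a description, with no test.

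Both rescues were K562 clones in which the endogenous MYB transcript was knocked down with the siRNA si2992, and RNA was taken 24 h after transfection. The 2KR-MYB rescue (2KR_rescue, 3 libraries) stably expressed 3xFLAG-2KR-Myb-HA, a form of MYB to which the small protein SUMO cannot be conjugated. The ANAA-MYB rescue (ANAA_rescue, 3 libraries) stably expressed 3xFLAG-ANAA-Myb-HA, a form with a defect in binding SUMO. All 6 libraries shared the knockdown, the line and the selection in 200 µg/ml G418. Each mutant was represented by 1 single cell clone, so that the mutant and the clone cannot be told apart. Control cells, knockdown cells without rescue and other rescues were not analysed here, and no value below says which of the rescues departed from them.

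The end of 1q carries genes of many unrelated pathways, from spliceosome and ribosome assembly factors to mitochondrial enzymes, complement receptors and a large cluster of olfactory receptors. What these genes share by construction is their position on the same arm. Extra copies of 1q are a recurrent change in blood cancers, and genes such as MDM4, an inhibitor of p53, and CD46 and CD55, which protect cells from complement, lie there. MYB itself is a transcription factor of blood progenitors and is encoded on another chromosome.

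MYB stood at 69.0, 61.2 and 67.5 FPKM with 2KR-MYB, against 53.6, 55.3 and 62.0 FPKM with ANAA-MYB, so the ranges overlapped. Reads of the construct and of the endogenous gene both count toward these values, and the knockdown cannot be read from them. ATF3, a stress-induced transcription factor, stood at 12.4, 15.0 and 10.4 FPKM with 2KR-MYB and at 7.06, 5.89 and 6.45 FPKM with ANAA-MYB, higher in all 3 libraries of the 2KR-MYB rescue although it lies inside the stretch. Erythroid markers of K562 were present in all 6 libraries, with HBG1 from 350 to 521 FPKM, HBG2 from 767 to 1161 FPKM and GATA1 from 74.9 to 111 FPKM. The lymphoid marker CD3E reached at most 0.531 FPKM. PTPRC, a leukocyte marker set as low in K562, was at 12.7, 13.5 and 12.9 FPKM with 2KR-MYB, against 5.77, 6.43 and 8.57 FPKM with ANAA-MYB. The epithelial markers EPCAM (43.1 to 50.2 FPKM) and KRT8 (277 to 330 FPKM) were not absent either. The part of these marker levels in the results was not tested.

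MYB binds elements of the form TAACNG or CAACNG, and the bases before the start of a gene are shown for 4 members that stood at the ends of the range of differences. GPATCH2 and CNIH3 had the highest differences of all members, and ZNF672 and RASSF5 were among the 5 lowest. Each sequence is the 250 bases before the outermost start in the RefSeq promoter table of GRCh38.p14, written on the strand of the gene, with TAACNG or CAACNG on either strand in capitals. The positions are chr1:217631091-217631340 (minus strand) for GPATCH2, chr1:224434390-224434639 (plus strand) for CNIH3, chr1:248837974-248838223 (plus strand) for ZNF672 and chr1:206507281-206507530 (plus strand) for RASSF5.
GPATCH2: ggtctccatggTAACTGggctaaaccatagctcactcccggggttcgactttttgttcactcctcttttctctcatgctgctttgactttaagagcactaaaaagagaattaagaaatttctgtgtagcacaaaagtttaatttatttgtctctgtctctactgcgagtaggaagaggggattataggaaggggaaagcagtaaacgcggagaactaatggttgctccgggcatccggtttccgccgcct
CNIH3: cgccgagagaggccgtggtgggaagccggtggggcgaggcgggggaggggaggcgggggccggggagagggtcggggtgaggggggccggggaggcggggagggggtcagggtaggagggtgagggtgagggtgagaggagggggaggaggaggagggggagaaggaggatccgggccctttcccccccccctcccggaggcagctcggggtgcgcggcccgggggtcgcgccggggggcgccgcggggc
ZNF672: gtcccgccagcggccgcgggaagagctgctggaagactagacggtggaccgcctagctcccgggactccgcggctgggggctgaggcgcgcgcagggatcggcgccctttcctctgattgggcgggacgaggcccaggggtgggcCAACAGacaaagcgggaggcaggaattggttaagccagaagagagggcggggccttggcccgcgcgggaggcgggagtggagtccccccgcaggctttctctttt
RASSF5: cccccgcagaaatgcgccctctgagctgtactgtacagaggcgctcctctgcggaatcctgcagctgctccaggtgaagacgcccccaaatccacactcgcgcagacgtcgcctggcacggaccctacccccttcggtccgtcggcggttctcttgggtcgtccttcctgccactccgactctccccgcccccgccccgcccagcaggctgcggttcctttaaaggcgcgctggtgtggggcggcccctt
The GPATCH2 sequence held 1 element, 239 bases before the start, and the ZNF672 sequence held 1 element, 105 bases before the start. No element stood in the other two. The GPATCH2 sequence was 45.2% G and C, against 80.0% for CNIH3, 69.6% for ZNF672 and 67.6% for RASSF5. It fills nearly the whole gap between GPATCH2 and the gene SPATA17, which starts on the opposite strand with 253 bases between them.

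Over all members, 207 promoters of 149 genes were in the RefSeq table, each running from 250 bases before to 50 bases after a start. TAACNG or CAACNG on either strand was found in 46.4% of them, against 43.9% of the promoters of all tested genes and 46.2% of all promoters in the table. A match is only these letters, and it says nothing of binding in K562.

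Most members were lower in the 2KR-MYB rescue. On the log2(FPKM + 1) scale the median difference, 2KR-MYB minus ANAA-MYB, was -0.27 over the 168 members (quartiles -0.40 and -0.15), and 148 members were below 0 and 20 above. The median ratio of mean FPKM was 0.821 (quartiles 0.744 and 0.896). Over all 12634 tested genes the median difference was -0.015 and the median ratio 0.989, with 53.2% of genes below 0. The other 999 tested genes of chromosome 1 had a median of -0.0046, with 50.8% below 0. A stretch of 34 tested genes on 8p, which had been chosen in the same way, had a median of -0.65. In bulk RNA, fewer cells with a transcript and less transcript per cell cannot be told apart.

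The 3 libraries of each rescue stood on the same side. The median deviation of the members from their own means over the 6 libraries was -0.16, -0.13 and -0.13 in the 2KR-MYB libraries and 0.12, 0.12 and 0.17 in the ANAA-MYB libraries. For the rest of chromosome 1 the same medians ran only from -0.024 to 0.017. The members together made up 1.05, 1.03 and 1.03% of the summed FPKM with 2KR-MYB and 1.26, 1.19 and 1.22% with ANAA-MYB, so the libraries of the rescues did not overlap in this share. The FPKM of a library summed to between 579920 and 601877 with 2KR-MYB and between 583555 and 633662 with ANAA-MYB. The typical spread within a rescue was small, with a median SD over members of 0.067 (2KR-MYB) and 0.075 (ANAA-MYB) on the log2 scale, against 0.079 and 0.082 over all tested genes.

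In 120 members all 3 libraries with 2KR-MYB lay below all 3 with ANAA-MYB, in 8 they lay above, and in 40 the libraries overlapped. Over all tested genes 24.8% were apart in the lower direction and 20.1% in the higher. In limma with Benjamini-Hochberg adjustment over all 12634 genes, 13.0% of genes had an adjusted p under 0.01 between the rescues, 7.42% lower and 5.57% higher with 2KR-MYB. By this call 67 members were lower, 3 were higher (GPATCH2, CNIH3 and ERO1B) and 98 were not called. The members were chosen on this contrast, and nothing is read from their counts beside the share of all genes. The count of members called lower was 33, 34 and 51 without 2KR-MYB replicate 1, 2 or 3, and 43, 37 and 43 without ANAA-MYB replicate 1, 2 or 3. Over all tested genes the calls fell too, from 1642 to 831, 855 and 1139, and to 916, 859 and 1011, in the same order. The median difference of the members stayed between -0.29 and -0.25 with any of the 6 libraries left out.

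Along the arm, the differences began close to SNRPE and reached the last member. The 5 nearest tested genes before the stretch had differences of 0.15 (TMEM183A), 1.19 (BTG2), -0.17 (ATP2B4), -0.046 (ZBED6) and -0.13 (ZC3H11A). ZBED6 and ZC3H11A share their coordinates, and their reads cannot be told apart with confidence. Over the 49 tested genes within 20 megabases before SNRPE the median was 0.028, with 24 below 0 and 25 above. The limits of the stretch were set on these differences, so that a step there is part of the choice.

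The stretch opened with SNRPE (ENSG00000182004, 203861599 to 203871152), a core protein of the spliceosome, and the first 5 members also held PPP1R15B, a partner of the phosphatase that acts on eIF2, MDM4 and TMEM81. SNRPE stood at 143, 156 and 159 FPKM with 2KR-MYB and at 185, 190 and 188 FPKM with ANAA-MYB, with no overlap and a difference of -0.30. PPP1R15B differed by -0.20 and its libraries did not overlap. MDM4 stood at 6.90, 6.15 and 8.14 FPKM with 2KR-MYB and at 8.77, 8.46 and 7.97 FPKM with ANAA-MYB, so its libraries overlapped, as did those of TMEM81 (difference -0.068).

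The last 5 members were OR2W3, SH3BP5L, ZNF672, ZNF692 and PGBD2 (ENSG00000185220, 248872851 to 248930191), a gene derived from a piggyBac transposase. All 5 had libraries that did not overlap, with differences of -0.30, -0.53, -0.86, -0.51 and -0.35. PGBD2 stood at 9.04, 9.53 and 10.6 FPKM with 2KR-MYB and at 13.1, 12.0 and 12.9 FPKM with ANAA-MYB. Of the 56 olfactory receptor rows in the stretch, OR2W3 was the only one with a mean of at least 1 FPKM, at 3.60, 3.63 and 2.95 FPKM with 2KR-MYB against 5.52, 3.85 and 3.97 FPKM with ANAA-MYB.

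Taken in order of start, 7 blocks of 24 members had medians between -0.38 and -0.16. The block from SNRPE to CD46 had a median of -0.29, and that from LAMB3 to KCTD3 had the median nearest to 0, at -0.16, with 17 of 24 members below 0. The blocks from GPATCH2 to WDR26 and from CNIH3 to IBA57 had medians of -0.23 and -0.30. In the block that ends with TSNAX all 24 members were below 0, at a median of -0.33. The last blocks, NTPCR to SDCCAG8 and ZBTB18 to PGBD2, had medians of -0.30 and -0.38, and in the last 23 of 24 members were below 0. Across the members the Spearman correlation of the difference with the gene start was -0.23 (n = 168 genes, which share all 6 libraries and are not independent).

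**Figure D1:**
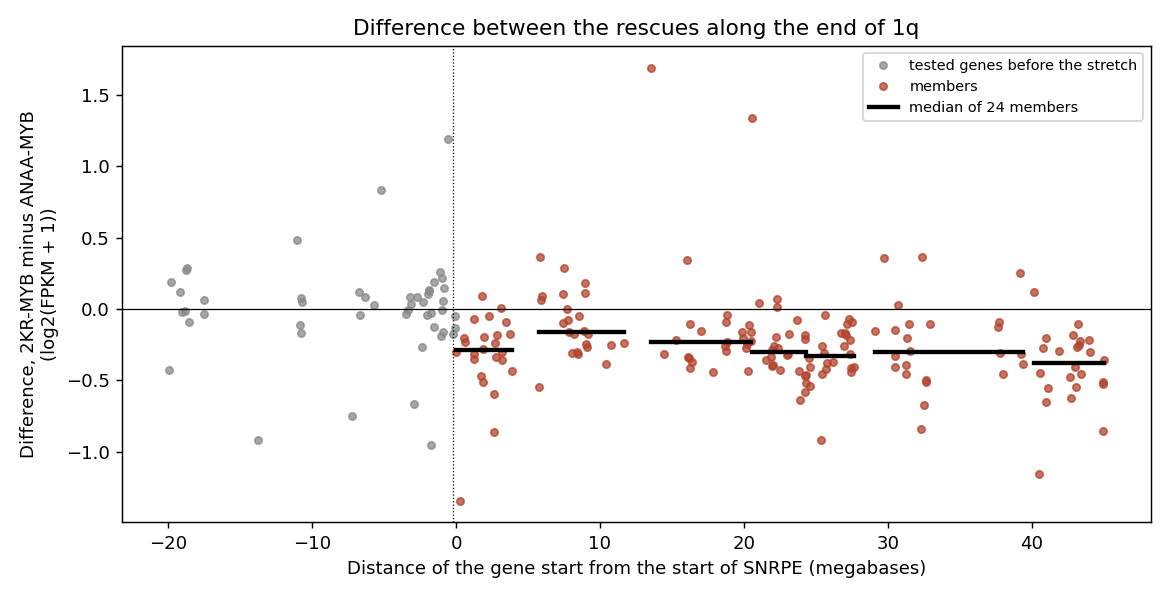
Difference between the rescues (2KR-MYB minus ANAA-MYB, log2(FPKM + 1)) for each tested gene against the distance of its start from the start of SNRPE in megabases, for 49 genes before the stretch (grey) and the 168 members (red), with the medians of 7 blocks of 24 members as black bars. The grey points scatter about 0 and all 7 bars lie below it, between -0.38 and -0.16, with GPATCH2 (1.69) and CNIH3 (1.34) as the members far above.

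The share of members that were lower differed between classes of level. Of the 28 members with a mean of at least 50 FPKM all 28 were lower with 2KR-MYB, at a median difference of -0.34. Of the 53 members from 20 to under 50 FPKM, 49 were lower (median -0.25), and of the 65 members from 5 to under 20 FPKM, 60 were lower (median -0.30). Of the 22 members from 1 to under 5 FPKM, 11 were lower and 11 higher, at a median of -0.030. The medians of all tested genes in the same classes, from the lowest to the highest, were 0.024, -0.012, -0.032 and -0.038. Differences of the lowest class also varied most, with an SD over members of 0.57 against 0.13 in the highest class.

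Genes of the same coordinates that were too low to be members had a median difference near 0. The stretch held 652 rows, of which 291 were listed at 0 in all 6 libraries, 127 had a mean above 0 and under 0.1 FPKM, and 66 had a mean from 0.1 to under 1 FPKM. On the log2(FPKM + 0.1) scale these 66 genes had a median difference of 0.033, with 29 below 0 and 37 above, and all 5900 genes of the same level had a median of 0.12. Their libraries were apart in the higher direction in 20 of the 66 (30.3%) and in the lower direction in 6 (9.09%), against 17.5% and 8.34% of all genes at that level. Counting error is large at these levels, and the number of reads behind them is not known. Just above the limit of 1 FPKM stood ACBD3-AS1 (mean 1.05), AURKAP1 (1.06) and COA6-AS1 (1.09), and just under it TLR5 (0.984), MTARC2 (0.935) and SUSD4 (0.836).

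Among the 5 members with the lowest differences were C1orf100, RAB4A-AS1, RASSF5 and ZNF672. C1orf100 (ENSG00000173728, 244352635 to 244389663) was at 4.71, 3.45 and 3.77 FPKM with 2KR-MYB against 9.95, 9.73 and 10.5 FPKM with ANAA-MYB, a difference of -1.16. RASSF5 (ENSG00000266094, 206507531 to 206589448), a Ras effector, was at 15.0, 12.9 and 13.6 FPKM against 25.6, 28.9 and 23.3 FPKM, a difference of -0.86. ZNF672 (ENSG00000171161, 248838224 to 248849517), a zinc finger gene, was at 11.8, 13.0 and 12.3 FPKM against 22.2, 22.6 and 24.8 FPKM, also a difference of -0.86. In these genes the libraries of the rescues were far apart, and the ratios from 0.396 to 0.533 lay well below the members' median of 0.821.

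RAB4A-AS1 (ENSG00000177788, 229256892 to 229271154) was at 6.15, 7.54 and 9.12 FPKM with 2KR-MYB, against 11.8, 19.5 and 14.9 FPKM with ANAA-MYB, a difference of -0.92. It overlaps the start of RAB4A, a gene of endosome recycling, which was itself lower at a difference of -0.45. Whether the counting used strand is not given in the sources used here, so reads of such partners cannot be told apart. The other antisense or divergent members were TAF1A-AS1 (-0.089), COA6-AS1 (-0.33), ACBD3-AS1 (0.074) and FLVCR1-DT (0.18), with LINC00467 (0.29) and LINC01347 (0.25) as the remaining non-coding members, named after their values were seen.

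Above 0 stood first GPATCH2 and CNIH3, both low. GPATCH2 (ENSG00000092978, 217426992 to 217631090), a G-patch protein, was at 4.51, 4.38 and 4.53 FPKM with 2KR-MYB, against 0.975, 0.621 and 0.514 FPKM with ANAA-MYB. This is a ratio of 6.36 and a difference of 1.69, in a region where the members of its block had a median of -0.23. SPATA17, on the other side of the gap of 253 bases, was no member and was named after its values were seen. It was at 0.532, 0.796 and 1.35 FPKM with 2KR-MYB, against 0.0484, 0.0976 and 0.0471 FPKM with ANAA-MYB, a difference of 2.52 on the log2(FPKM + 0.1) scale. Both neighbours thus had all 3 libraries with 2KR-MYB above all 3 with ANAA-MYB. CNIH3 (ENSG00000143786, 224434640 to 224740554), which helps AMPA receptors leave the endoplasmic reticulum, was at 4.82, 6.03 and 6.12 FPKM against 1.78, 1.62 and 1.46 FPKM, a ratio of 3.49 and a difference of 1.34.

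The next members above 0 were much closer to it. G0S2, an inhibitor of the lipase ATGL, differed by 0.37, at 10.3, 10.1 and 7.04 FPKM against 7.15, 7.24 and 5.98 FPKM, and its libraries overlapped. ERO1B, an oxidase of the endoplasmic reticulum, differed by 0.36, at 8.71, 8.91 and 9.83 FPKM against 7.11, 7.09 and 6.46 FPKM. KCNK1, a potassium channel, differed by 0.36, at 4.67, 5.49 and 4.02 FPKM against 3.60, 3.50 and 3.22 FPKM. The libraries of ERO1B and KCNK1 did not overlap.

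**Figure D2:**
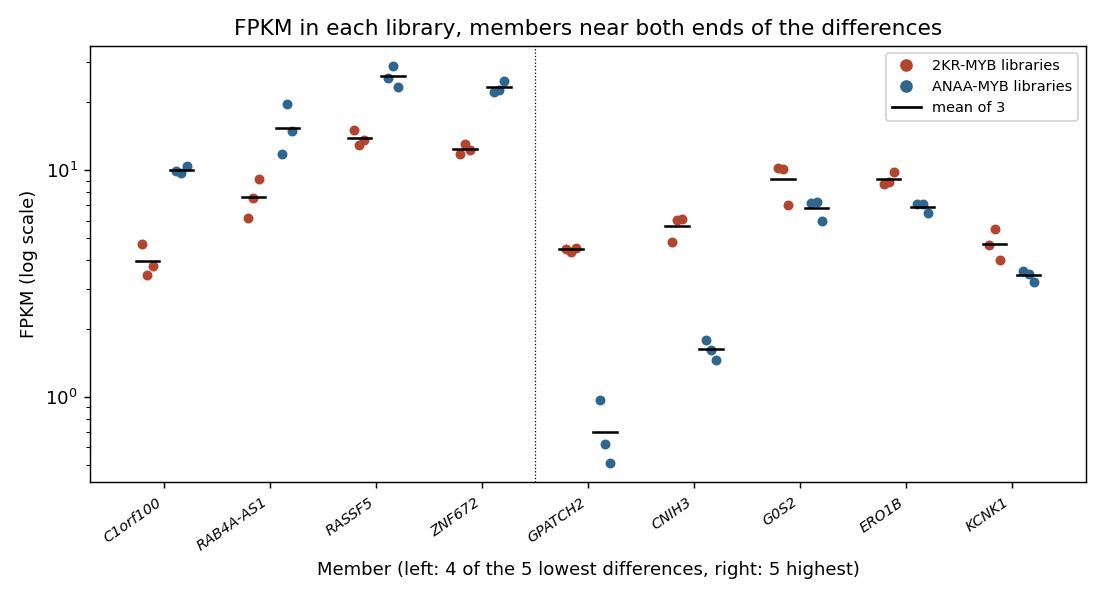
FPKM (log axis) in each of the 3 libraries with 2KR-MYB (red) and the 3 with ANAA-MYB (blue), with their means as bars, for 4 of the 5 members with the lowest differences (left) and the 5 with the highest (right). On the left the red points lie below the blue for all 4 genes, and on the right they lie above for GPATCH2, CNIH3, ERO1B and KCNK1 while those of G0S2 overlap.

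The 5 most abundant members were SRP9, HNRNPU, ARF1, H3-3A and TOMM20, and none of them had overlapping libraries. SRP9, a subunit of the signal recognition particle, was at 430, 422 and 437 FPKM with 2KR-MYB, against 521, 515 and 594 FPKM with ANAA-MYB, a difference of -0.34. HNRNPU, a nuclear RNA-binding protein, was at 384, 428 and 413 FPKM against 445, 500.1 and 463 FPKM, a difference of -0.20. ARF1, a GTPase of the Golgi, was at 382, 415 and 388 FPKM against 462, 433 and 475 FPKM, a difference of -0.21. H3-3A, which encodes histone H3.3, was at 384, 402 and 399 FPKM against 440, 479 and 439.7 FPKM, a difference of -0.20. TOMM20, an import receptor of mitochondria, was at 172, 167 and 164 FPKM against 218, 230 and 243 FPKM, a difference of -0.45. H3-3A shares its protein with a gene on another chromosome, and reads of near-identical copies may have been split between them, as also for FAM72A, CR1L, H2AC25 and the pseudogenes AURKAP1, SEPTIN7P13 and ZNF731P.

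By role, 120 members fell into 15 groups and 48 into none, and a member could be in more than 1 group. All 15 medians were below 0, from -0.51 to -0.18, against the members' median of -0.27. The groups describe what the arm carries and were not tested. Of all 168 members, 148 were below 0 and 67 were called lower, against 53.2% and 7.42% of all tested genes. The stretch was chosen on this contrast, so nothing about a role is read from the counts of any group below.

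In the group of splicing and RNA handling all 10 members were below 0, at a median of -0.28. Of them 7 were called lower, beside 67 of all 168 members and 7.42% of all tested genes. SRP9, HNRNPU and SNRPE were the most abundant. TSNAX, the partner of translin, was lowest at -0.41, and TARBP1, an RNA methyltransferase, was nearest to 0 at -0.14 with overlapping libraries. Of 7 genes listed under ribosome assembly, 6 were below 0 (median -0.31) and 4 were called lower. The list also held RPS6KC1 (-0.17), a protein of endosomes, and without it 5 of 6 genes were below 0 (median -0.34). HEATR1, needed for making 18S ribosomal RNA, was lowest at -0.50, at 36.1, 37.3 and 40.2 FPKM with 2KR-MYB against 51.3, 52.6 and 57.8 FPKM with ANAA-MYB. RBM34 was at -0.39 and NVL, an ATPase of large subunit assembly, at -0.11, while UTP25 was at 0.092, and the libraries of NVL and UTP25 overlapped.

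Of 15 genes of transcription and chromatin, 13 were below 0 (median -0.27) and 7 were called lower. PARP1, which marks DNA breaks with poly(ADP-ribose), was at 137, 141 and 146 FPKM with 2KR-MYB against 178, 193 and 201 FPKM with ANAA-MYB, a difference of -0.43. NUCKS1, an abundant chromatin protein, differed by -0.28. ELK4, a partner of serum response factor, was lowest in the group at -0.47 and ZBTB18, a repressor, was highest at 0.12 with overlapping libraries. Of 9 zinc finger genes, 8 were below 0 (median -0.26) and 4 were called lower. They included ZNF692 (-0.51) and ZNF496 (-0.46), beside ZNF672 at the bottom and ZBTB18 at the top.

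The 3 genes of the nuclear envelope and pore were all below 0, with LBR, the lamin B receptor, at -0.36, AHCTF1, which seeds new nuclear pores, at -0.40 and NUP133, a pore subunit, at -0.31. LBR stood at 101, 96.9 and 104 FPKM with 2KR-MYB and at 125, 124 and 139 FPKM with ANAA-MYB. Of 13 genes of mitosis, replication and DNA repair, 12 were below 0 (median -0.26) and 4 were called lower. EXO1, an exonuclease of mismatch repair, was lowest at -0.45, at 53.7, 56.4 and 56.5 FPKM with 2KR-MYB against 71.3, 76.7 and 81.6 FPKM with ANAA-MYB. NEK2, a centrosomal kinase, was at -0.075 with overlapping libraries, and TATDN3 was highest at 0.12, also with overlapping libraries. The 4 genes of the p53 pathway were all below 0 (median -0.27), with SMYD2, a methyltransferase of p53, at -0.39, PPP2R5A at -0.30 and TP53BP2, which binds p53, at -0.20.

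Of 13 listed mitochondrial genes with a row in the stretch, 11 were members. All 11 were below 0 at a median of -0.41, as were 148 of all 168 members at a median of -0.27. Of the 11, 8 were called lower, beside 67 of all 168 members and 7.42% of all tested genes. COX20, an assembly factor of cytochrome c oxidase, was lowest at -0.65, at 10.1, 9.37 and 10.3 FPKM with 2KR-MYB against 14.6, 18.6 and 15.6 FPKM with ANAA-MYB. COA6, another assembly factor of that enzyme, stood at 74.3, 80.8 and 75.8 FPKM against 98.8, 97.5 and 111 FPKM, a difference of -0.41. FH, fumarase of the citric acid cycle, was at 104 ± 3.43 FPKM (SD, n = 3) with 2KR-MYB against 113 ± 6.80 FPKM (SD, n = 3) with ANAA-MYB, a difference of -0.12 with overlapping libraries. ABCB10, a transporter needed for heme synthesis, was nearest to 0 at -0.040, also with overlapping libraries. MTARC2, a mitochondrial enzyme just under 1 FPKM, was no member and went the other way. It was at 1.13, 1.24 and 3.09 FPKM with 2KR-MYB against 0.117, 0.0138 and 0.0213 FPKM with ANAA-MYB. This is a difference of 3.59 on the log2(FPKM + 0.1) scale.

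The 7 genes of red cells, heme and iron were all below 0 (median -0.21) and 2 were called lower. IBA57, an iron-sulfur cluster factor, was lowest at -0.46, DYRK3, a kinase of erythroid progenitors, was at -0.34, and CD55 at -0.090 with overlapping libraries. Of the 3 complement regulators, CD46 stood at 72.3, 70.9 and 74.5 FPKM with 2KR-MYB and at 98.0, 99.5 and 97.4 FPKM with ANAA-MYB, a difference of -0.43 with narrow and separate ranges. CR1L was at -0.18. CD55, which lies close to CD46, was at 63.2, 66.8 and 56.4 FPKM against 64.7, 71.0 and 62.6 FPKM, so its libraries overlapped while those of CD46 did not, and the difference between both genes was not tested.

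Of 17 genes of the secretory pathway and membrane traffic, 14 were below 0 (median -0.21), 7 were called lower and 2, CNIH3 and ERO1B, were called higher. RAB29, a GTPase that recruits LRRK2, was lowest at -0.51, and ARV1, a lipid regulator of the endoplasmic reticulum, was at -0.18. The 11 kinases and phosphatases were all below 0 (median -0.30) and 5 were called lower. IKBKE, a kinase of interferon signalling, was lowest at -0.59, at 2.43, 3.02 and 3.24 FPKM with 2KR-MYB against 5.03, 4.98 and 4.58 FPKM with ANAA-MYB. CDC42BPA and MAPKAPK2, a kinase downstream of p38, were at -0.17 and -0.18, and NEK2 was nearest to 0.

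The 12 genes listed under the ubiquitin pathway were all below 0 (median -0.23) and 3 were called lower. The list also held LYPLAL1 (-0.21), a thioesterase-like protein, and TTC13 (-0.16) and KCTD3 (-0.23), for which a part in that pathway is not established, and without these the 9 others had a median of -0.25. WDR26, a subunit of the CTLH ligase, was at -0.22, YOD1, a deubiquitinase, at -0.36 and RNF187 lowest at -0.40, while TRIM67, at a mean of 1.18 FPKM, was at -0.072 with overlapping libraries. The 15 genes listed as metabolic enzymes were all below 0 (median -0.30) and 4 were called lower. The list also held CAPN2, a protease, and without it the 14 others had a median of -0.30. ADSS2, of AMP synthesis, was lowest at -0.45, EPRS1, a tRNA synthetase, was at -0.34 and GGPS1, of isoprenoid synthesis, was nearest to 0 at -0.10. Of the 3 genes of cytoskeleton and adhesion, LAMB3, a laminin chain, was at -0.55, LGALS8, a galectin, at -0.51 and CAPN2, a calpain, at -0.16. CAPN2 was at 138, 140.2 and 119.7 FPKM against 148, 139.6 and 156 FPKM, and its libraries overlapped.

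**Figure D3:**
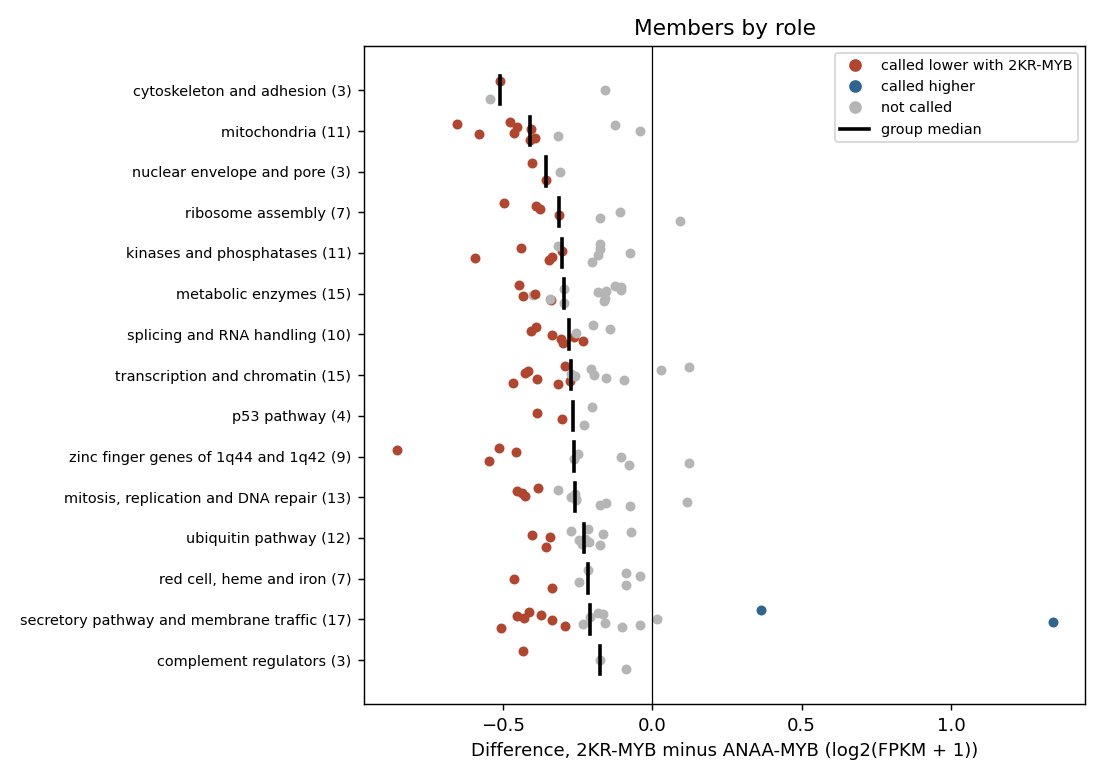
Difference between the rescues (2KR-MYB minus ANAA-MYB, log2(FPKM + 1)) for the 120 members in 15 role groups, 1 point for a member in each of its groups, coloured by whether limma called it lower, higher or neither, with group medians as black bars and the number of members in parentheses. Every group median lies between -0.51 and -0.18, and most points to the right of 0 are grey.

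Across the members the Spearman correlation of the difference was -0.20 with the mean level, 0.083 with the gene span (n = 168 for both) and -0.020 with the G and C content of the promoter (n = 149). It was 0.11 with the SD within the rescues (n = 168). These are correlations across genes that share the 6 libraries, and are given as a description. The members spanned a median of 37459 bases, against 27972 bases over the tested genes with a position, and 158 of them were protein coding, 7 long non-coding RNAs and 3 pseudogenes.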

How the data were processed

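RNA from 3 libraries of each rescue was sequenced as poly(A)-selected, stranded pairs of 150 bases. Per the submitters' processing notes, the authors used bcl2fastq 2.18.0.12, Trimmomatic 0.36, TopHat2 2.1.1 with GRCh38, Cufflinks and Cuffdiff 2.2.1. The values they deposited are FPKM, 1 column a replicate. Which annotation was counted, whether strand was used and how Cuffdiff scaled the libraries is not given in the sources used here. A further 12 columns of per-sample values matched no sample label and were not used. Depth is unknown, since ratios of low values between libraries showed no common step (at most 5.39% in the most frequent window), so no interval for counting error is given.

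Positions came from RefSeq (GRCh38.p14), matched for 165 members by symbol and for 3 by older symbol. Of the tested genes 1015 had no position and could not be members. Differences were taken on log2(FPKM + 1), and calls came from limma 3.58.1 (R 4.3.3) with a trend, Benjamini-Hochberg adjustment over 12634 genes and an adjusted p under 0.01. The p-values measure only the spread between these libraries, of 1 clone a rescue. On simulated data of 12634 genes for this comparison, of which 200 were changed, limma recovered 45% of changes of 0.5 and 77% of changes of 1 (log2). In the data 13.0% of genes were called, and the adjustment depends on the share of changed genes. The recovered shares need not hold for the data. Alternatives were other pseudocounts, filters, scalings and thresholds, a replicate block and each library left out.

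The members, role groups and lists were chosen with earlier results of these data known. Genes named were MYB, ATF3, the 5 members at each end of the stretch and of the range of differences, the 5 most abundant, the 5 tested genes before the stretch, and in each role group the 3 most abundant and the lowest and highest members. Some genes that this rule or the marker list names are not reported here. Other genes were named after their values were seen.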

Additional observations from a re-analysis of the deposited data

How the results depend on the processing

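The median difference of the members kept its sign under all 12 alternatives tried for it, and moved beyond its spread between libraries only with upper quartile scaling, to -0.23 (all tested genes then 0.024, with 145 members below 0). No median of the 15 role groups changed sign under the 4 alternatives tried for them, nor did those of 3 groups without their members of another role, a choice made after seeing the data. With upper quartile scaling 949 of 1741 genes called were higher, against 704 of 1642 as reported, so the split of calls depends on the scaling. The number of genes called in either direction was 942 of 28536 (3.30%) with no filter on low values. It was 3402 (26.9%) at an adjusted p under 0.05 and between 831 (6.58%) and 1139 (9.02%) with 1 library left out. The number of members called lower was 35 with no filter, 108 at 0.05 and between 33 and 51 with 1 library left out. Members called higher numbered 1 with a mean of at least 5 FPKM and 5 at 0.05, and the members apart in the higher direction numbered 2 with a mean of at least 5 FPKM, a filter that also left fewer members (146). With the replicate block 1089 genes were called, with 51 members lower and 2 higher. The correlations of same-numbered deviations were -0.052, -0.035 and -0.0026, and those of differently numbered libraries ran from -0.035 to 0.064. With 3 libraries a rescue these values cannot decide whether same-numbered libraries were prepared together, and the labels give only a replicate number. The median of the low genes of the stretch turned to -0.0048 for means from 0.3 to under 1 FPKM. The element TAACGG alone was in 3.38% of the members' promoters, against 4.10% of those of tested genes and 3.07% of all in the table.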
